A study of Mus musculus with 4 samples.

Results

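Helios-negative CD8-lineage thymocytes were taken from 2 droplet single-cell RNA libraries of sorted mouse thymocytes. A barcode was kept with at least 2000 unique molecular identifiers (UMIs), at least 500 genes and at most 10% mitochondrial UMIs. It was counted as a Helios-negative CD8 cell when it held UMIs of both Cd8a and Cd8b1 and none of Cd4, Rag1 or Ikzf2, the gene for Helios. This rule found 613 of 14381 kept barcodes in the Cgas KO library and 708 of 12929 in the WT library, 1321 of 27310 in all. The 2 classes set beside them were Helios-positive CD8 cells, which met the same rule but held an Ikzf2 UMI (535 in Cgas KO and 494 in WT), and Cd4-positive cells, with a Cd4 UMI and none of Cd8a or Cd8b1 (6809 in Cgas KO and 6136 in WT). Cgas KO cells came from Cd4Cre mice with Cgas fl/fl alleles and WT cells from Cd4Cre mice, so both genotypes carried the Cre driver, which is active from the double-positive stage of T cell development. The labels state neither the age and sex of the mice nor how many went into a library. Each genotype had 1 gene expression library and 1 T cell receptor (TCR) library of thymocytes labelled as positive for CD4 and for the chemokine receptor CCR7. The CD8-lineage cells described here are those that passed this sort, and they need not stand for CD8-lineage cells of the whole thymus.

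In the thymus, double-positive cells that express CD4 and CD8 are selected on self peptides and then keep 1 coreceptor. Cells restricted to MHC class I turn on Runx3, which silences Cd4 and opens the cytotoxic programme, while cells restricted to MHC class II turn on Zbtb7b (ThPOK), which blocks Runx3 and keeps Cd4. Helios is a zinc finger factor of the Ikaros family that marks thymocytes signalled strongly by self antigen, among them regulatory T cells and precursors of intestinal CD8 alpha-alpha lymphocytes. Semi-mature cells still carry Itm2a, Ccr9 and Cd24a, and mature cells that are about to leave the thymus carry Klf2 and S1pr1.

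Helios-negative CD8 cells had a median of 3939 UMIs in Cgas KO and 4515.5 in WT, against 4723 and 5145 in Cd4-positive cells. Since membership rests on UMIs being seen or not seen, a shallow cell is more likely to show no Cd4, Rag1 or Ikzf2 UMI, and a cell with none may still express the gene. The 2 libraries shared 276 kept barcode sequences, 9 of them on Helios-negative CD8 cells in Cgas KO and 12 in WT. Several beta chains, which a droplet with more than 1 cell can give, were found in 5.71% of Helios-negative CD8 cells in Cgas KO and 3.67% in WT, against 9.37% and 8.78% of Cd4-positive cells. In Cgas KO, 1166 kept barcodes, 9.69% of those with both chains, shared their whole set of alpha and beta contigs with another barcode of that library, against 35 barcodes (0.325%) in WT. The Cgas KO sets were all pairs, and their barcodes had a median of 3168.5 UMIs, against 4620 in all other kept barcodes of that library. Of the Helios-negative CD8 cells, 48 in Cgas KO (7.83%) and none in WT belonged to such sets. Results that compare the genotypes are given with 1 barcode kept per receptor where this moved them.

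The RNA of other lineage genes went with the CD8 label. Levels are given as CPM, a gene's summed UMIs scaled by all UMIs of the class. Runx3 stood at 235 CPM in Cgas KO and 210 CPM in WT Helios-negative CD8 cells, against 48.2 and 49.5 CPM in Cd4-positive cells. Nkg7, which encodes a protein of cytotoxic granules, stood at 149 and 223 CPM in Helios-negative CD8 cells and at 2.66 and 4.54 CPM in Cd4-positive cells. With each cell thinned to 2000 UMIs, Nkg7 was seen in 21.5% of Helios-negative CD8 cells in Cgas KO and 25% in WT, against 0.338% and 0.603% of Cd4-positive cells, which should lack it. Zbtb7b went the other way, with 10.3 and 7.58 CPM in Helios-negative CD8 cells against 90.4 and 96.5 CPM in Cd4-positive cells. The label therefore held for its markers in both libraries. Cd8a and Cd8b1, which the rule used, stood at 1194 and 1031 CPM in Cgas KO and at 1108 and 935 CPM in WT Helios-negative CD8 cells.

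At the edge of the rule the markers were weaker. The 40 Cgas KO and 46 WT cells with exactly 1 UMI of each CD8 gene had Nkg7 at 45.5 and 78.3 CPM and Zbtb7b at 52.1 and 39.2 CPM, while the 573 and 662 cells with more had Nkg7 at 156 and 232 CPM and Zbtb7b at 7.69 and 5.58 CPM. Just outside, cells that differed by 1 Cd4 UMI (130 in Cgas KO and 121 in WT) had Nkg7 at 63.9 and 118 CPM and Zbtb7b at 40.8 and 34.5 CPM. Cells outside by a single Ikzf2 UMI (169 and 182) had Runx3 at 233 and 186 CPM and Nkg7 at 182 and 262 CPM. Those levels lie next to the ones inside the rule.

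**Figure D1:**
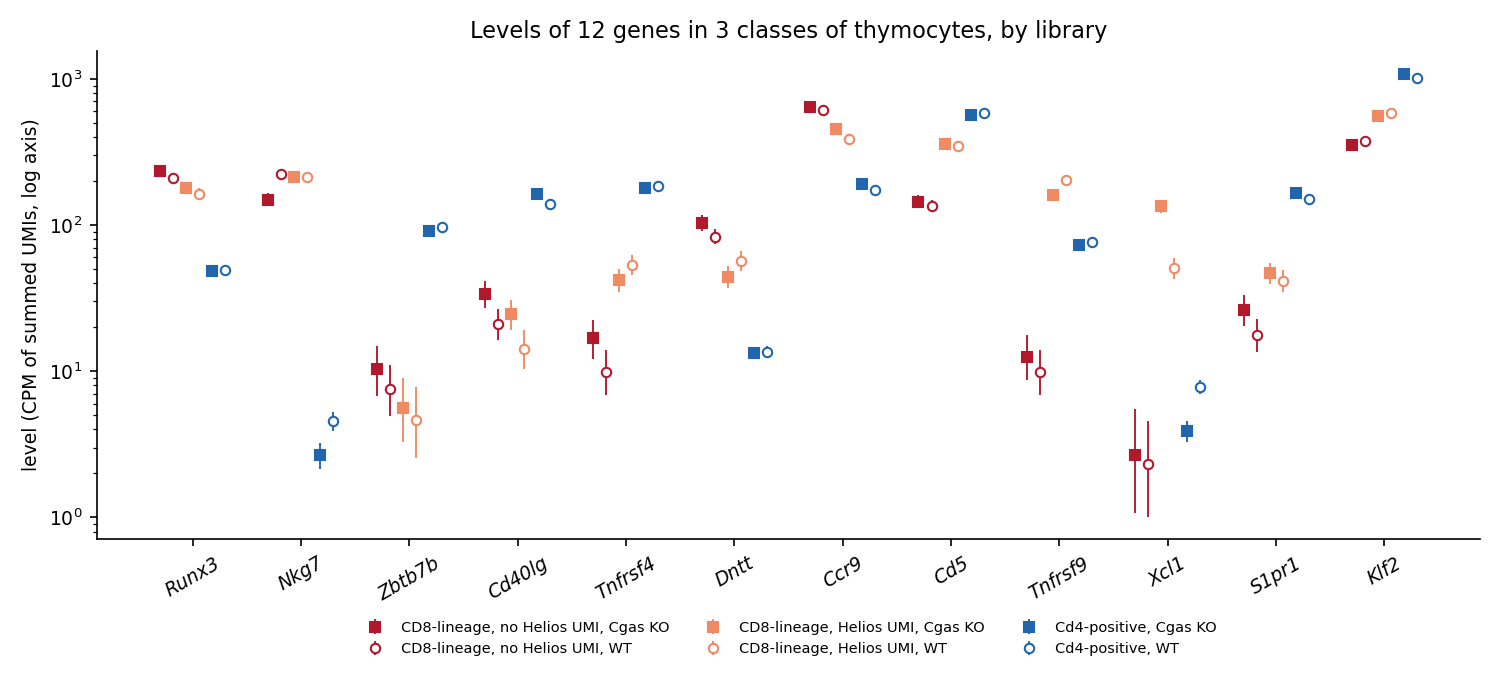
Levels of 12 genes in CPM (log axis) in Helios-negative CD8 cells, Helios-positive CD8 cells and Cd4-positive cells, with Cgas KO as filled squares left of WT as open circles and bars for exact 95% Poisson intervals of the summed UMIs. Runx3, Nkg7, Dntt and Ccr9 were higher, and Zbtb7b, Tnfrsf4, Cd5, S1pr1 and Klf2 lower, in Helios-negative CD8 cells of both libraries than in Cd4-positive cells.

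Promoters of the 2 marker genes are shown for the letters that Runx proteins are known to bind, ACCACA or its reverse complement TGTGGT, searched on both strands over 250 bases before and 50 after a RefSeq start in build GRCm38.p6. Capitals mark each match. The window held 2 matches at the upstream start of Runx3 (chr4:135120395-135120694, plus strand) and 1 at Nkg7 (chr7:43436888-43437187, plus strand). The other Runx3 start and the Cd8a start held none, and of the 2 starts of Zbtb7b, which was low in these cells, 1 held a match and 1 held none. Of 32851 RefSeq promoters of that length, 16.8% held at least 1 match. A match describes the letters and was not tested for binding.
Runx3, upstream start: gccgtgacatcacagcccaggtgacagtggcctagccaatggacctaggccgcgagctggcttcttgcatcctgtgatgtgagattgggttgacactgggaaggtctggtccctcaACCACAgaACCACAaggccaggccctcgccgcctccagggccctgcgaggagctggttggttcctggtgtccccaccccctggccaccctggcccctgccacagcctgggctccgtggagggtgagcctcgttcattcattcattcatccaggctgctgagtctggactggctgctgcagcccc
Nkg7: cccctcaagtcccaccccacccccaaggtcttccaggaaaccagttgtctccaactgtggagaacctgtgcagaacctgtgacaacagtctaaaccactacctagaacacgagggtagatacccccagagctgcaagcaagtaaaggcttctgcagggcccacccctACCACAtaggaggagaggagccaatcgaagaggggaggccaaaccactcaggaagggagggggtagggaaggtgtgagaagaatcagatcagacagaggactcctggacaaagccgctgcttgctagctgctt

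Helios-negative CD8 cells were then compared with Cd4-positive cells over all genes. Cells with an Ikzf2 or Rag1 UMI were left out of the Helios-negative CD8 cells but not of the Cd4-positive cells. UMIs were summed per library and class and tested with edgeR's quasi-likelihood test with the library as a term, and a gene was called at a Benjamini-Hochberg adjusted p under 0.05 and a fold of at least 1.5. With the library as a term, the spread is how far the differences between classes vary between the 2 libraries. These also differ in genotype, neither genotype was repeated, and nothing in the labels says that they came from separate sorts. The p-values therefore do not measure the spread between mice or between libraries of 1 genotype. Of 10895 genes tested, 584 (5.36%) were higher and 1089 (10.0%) lower in Helios-negative CD8 cells. The direction was the same in each library for 582 of the higher and for all 1089 of the lower genes called. Since the calls were made on these same libraries, this was largely fixed in advance. In each library by itself, 471 of the higher and 774 of the lower genes passed 1.5-fold. Nkg7 had the largest fitted difference among the genes named, a log2 fold change of 5.65 ± 0.13 (SE; edgeR adjusted p = 1.64e-20), and Runx3 had 2.13 ± 0.06 (edgeR adjusted p = 2.34e-18).

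**Figure D2:**
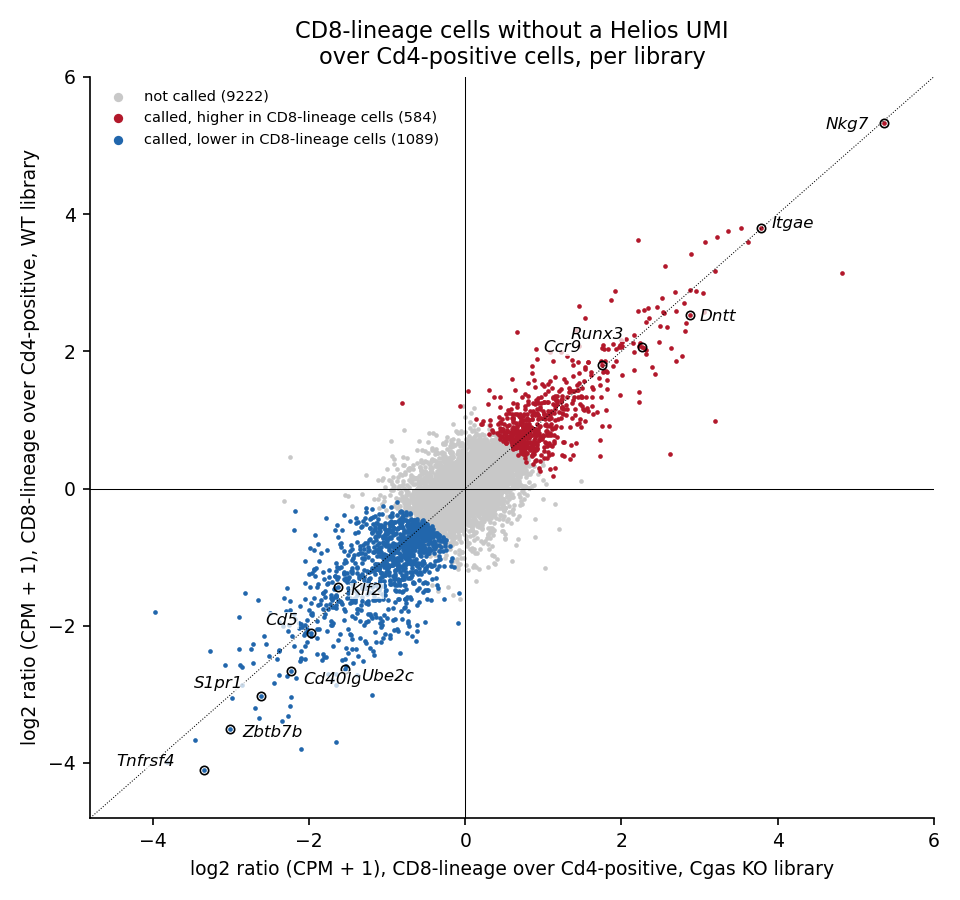
Log2 ratio of Helios-negative CD8 cells over Cd4-positive cells with 1 CPM added, in the Cgas KO library (x axis) and the WT library (y axis), 1 point per gene tested, coloured by the call over both libraries. Nkg7, Itgae and Dntt lie far above 0 and Tnfrsf4, Zbtb7b and S1pr1 far below 0 on both axes.

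The cytotoxic list, granule and killer cell genes, was higher in part. Of 13 members tested, 8 rose and 2 fell, with a median log2 difference of 1.16, against 0.01 over all genes tested. Beside Nkg7, Ccl4 (a chemokine) had 15.6 and 11.1 CPM in Cgas KO and WT Helios-negative CD8 cells against 2.09 and 2.80 CPM in Cd4-positive cells. Crtam (an adhesion receptor of cytotoxic cells) had 14.1 and 13.998 CPM against 2.82 and 2.503 CPM, and Cd160 (a receptor of cytotoxic lymphocytes) had 8.76 and 13.1 CPM against 2.55 and 2.34 CPM. Effector genes were near or at 0: Gzmb had no UMI in Helios-negative CD8 cells of either library, and Ifng had 0.381 and 0.292 CPM against 0.190 and 0.381 CPM. The 2 members that fell were Fasl, the ligand of the death receptor Fas (2.29 and 1.46 CPM against 4.69 and 4.38 CPM), and Srgn, a proteoglycan of granules that many blood cells make (153 and 143 CPM against 251 and 232 CPM). Gzmb, Ifng and Fasl were chosen after their values were seen. The rise was not particular to Helios-negative cells. Against Helios-positive CD8 cells, none of the 13 members rose and 4 fell (Xcl1, Cd160, Srgn and Ccl4). After thinning, 27.4% and 32.5% of Helios-negative CD8 cells in Cgas KO and WT held at least 3 UMIs of the list. The shares were 32.3% and 41.9% in Helios-positive CD8 cells.

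Helper-lineage genes ran lower. Of 18 members tested on the CD4 lineage list, 13 fell and 1 rose, with a median log2 difference of -1.44. Cd40lg, the helper signal to B cells, had 33.9 and 21.0 CPM in Cgas KO and WT Helios-negative CD8 cells against 164 and 139 CPM in Cd4-positive cells (log2 -2.54 ± 0.10, edgeR adjusted p = 9.25e-16). Tnfrsf4 (OX40), a costimulatory receptor of helper and regulatory cells, had 16.8 and 9.92 CPM against 180 and 186 CPM. Izumo1r (folate receptor 4) had 47.6 and 51.0 CPM against 207 and 269 CPM. Ccr4, a chemokine receptor that guides thymocytes into the medulla, was the member that rose, at 68.2 and 71.7 CPM against 47.4 and 43.0 CPM. Foxp3 had 1 UMI in Cgas KO and 2 in WT Helios-negative CD8 cells, at or under the floor of 3 counts.

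Among 18 lineage and maturation regulators tested, 2 rose and 5 fell. Runx3 and Hdac7, a class IIa histone deacetylase of thymocytes, were those that rose, Hdac7 with 198 and 204 CPM in Cgas KO and WT Helios-negative CD8 cells against 87.2 and 83.5 CPM in Cd4-positive cells. The 5 that fell were Klf2, Id2, Id3, Lef1 and Bach2; Id2 had 61.3 and 81.7 CPM against 100.03 and 143 CPM. On the list of TCR signalling and tuning 2 of 27 rose and 3 fell, shares near those over all genes tested (5.36% and 10.0%), so the count says nothing particular to the list. Themis, a signalling adaptor needed for positive selection, had 625 and 642 CPM against 309 and 303 CPM and rose, while Cd5, Cd6 and Cblb, which restrain TCR signals, fell. Of 28 genes of cytokine receptors and STAT signalling 5 fell and none rose, Il7r among those that fell.

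Other genes past the threshold belonged to no single list. The 12 highest named by rule included Dntt (terminal transferase, which adds bases at V(D)J joints), the monocarboxylate carrier Slc16a5, the TGF-beta coreceptor Eng and the homing receptor Ccr9. Ccr9 had 645 and 607 CPM in Cgas KO and WT Helios-negative CD8 cells against 191 and 173 CPM in Cd4-positive cells, and Eng had 63.2 and 74.7 CPM against 15.2 and 17.1 CPM. Itgae, the alpha chain of the CD103 integrin that binds E-cadherin, had 27.8 and 27.7 CPM against 1.08 and 1.06 CPM. Low in both libraries were Igfbp4, a growth factor binding protein, with 40.4 and 36.7 CPM against 455 and 476 CPM, and the chemokine receptor Ccr8, with 23.2 and 32.4 CPM against 158 and 194 CPM.

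Genes of the double-positive stage were higher in Helios-negative CD8 cells. Of 14 members tested, 9 rose and none fell, with a median log2 difference of 1.53. Dntt had 104 and 83.1 CPM in Cgas KO and WT Helios-negative CD8 cells against 13.3 and 13.5 CPM in Cd4-positive cells. Arpp21 (an RNA-binding protein of immature thymocytes) had 65.5 and 46.7 CPM against 8.43 and 8.68 CPM. After thinning, 46.0% of Helios-negative CD8 cells in Cgas KO (95% interval 42.0 to 50.04) and 45.1% in WT (41.3 to 48.8) held at least 3 UMIs of the list, against 23.4% and 21.0% of Cd4-positive cells. The list summed to 1401 and 1318 CPM in Cgas KO and WT Helios-negative CD8 cells, next to 1644 and 1317 CPM in free RNA, read from barcodes with at least 20 and under 200 UMIs. Its part in the result was not tested. Rag2 had 1.14 and 2.62 CPM in Helios-negative CD8 cells, below the free RNA (5.49 and 7.20 CPM); it was chosen after its values were seen.

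Genes of late maturation and egress were lower. As for the double-positive list, this describes CD8-lineage cells that passed the sort for CD4 and CCR7, and others were not sampled. Of 19 members tested, 12 fell and none rose, with a median log2 difference of -0.70. S1pr1, the receptor that lets thymocytes leave, had 26.3 and 17.8 CPM in Cgas KO and WT Helios-negative CD8 cells against 166 and 152 CPM in Cd4-positive cells. Klf2, which drives S1pr1, had 351 and 373 CPM against 1086 and 1011 CPM. Il7r, the survival cytokine receptor, had 154 and 176 CPM against 304 and 329 CPM. Genes of the semi-mature stage were split, with 5 of 17 higher and 3 lower: Ccr9 and Cd24a rose while Itm2a fell, at 496 and 427 CPM against 1105 and 1127 CPM.

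Signalling and interferon genes were lower too. Of 21 TCR-induced genes tested, 11 fell and none rose. After thinning, 46.0% and 42.2% of Helios-negative CD8 cells in Cgas KO and WT held at least 3 UMIs of that list. The shares were 63.4% and 61.9% in Helios-positive CD8 cells and 69.6% and 69.0% in Cd4-positive cells. Cells with an Ikzf2 UMI were left out on the CD8 side alone, and the part of this uneven rule in the fall was not tested. Cd5, whose level follows the strength of self-recognition, had 144 and 135 CPM in Cgas KO and WT Helios-negative CD8 cells against 567 and 585 CPM in Cd4-positive cells (log2 -2.10 ± 0.05, edgeR adjusted p = 1.67e-19). Tnfrsf9 (4-1BB) had 12.6 and 9.92 CPM against 72.8 and 77.1 CPM. Of 41 interferon-stimulated genes tested, 20 fell and none rose, with a median log2 difference of -0.57, and Ifi27l2a fell to 212 and 235 CPM in Helios-negative CD8 cells, against 912 and 927 CPM. On the cGAS-STING list 7 of 12 fell and none rose, among them Samhd1 (a dNTP hydrolase), with 39.999 and 65.6 CPM against 268 and 318 CPM. Sting1 (the adaptor below cGAS) had 32.4 and 52.5 CPM against 63.4 and 73.1 CPM, in WT by itself less than 1.5-fold lower (log2 ratio -0.470). The 7 include genes with few counts in Helios-negative CD8 cells. Cgas, itself the targeted gene, had 2 and 6 UMIs, and Enpp1 had 4 and 8. Of 17 genes of CTCF and cohesin 1 fell (Esco2, whose direction turned with the rule applied after thinning) and none rose. Over all genes tested 5.36% were higher and 10.0% lower, so this count says nothing particular to the list. Ctcf itself had 162 and 155 CPM against 166 and 158 CPM.

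**Figure D3:**
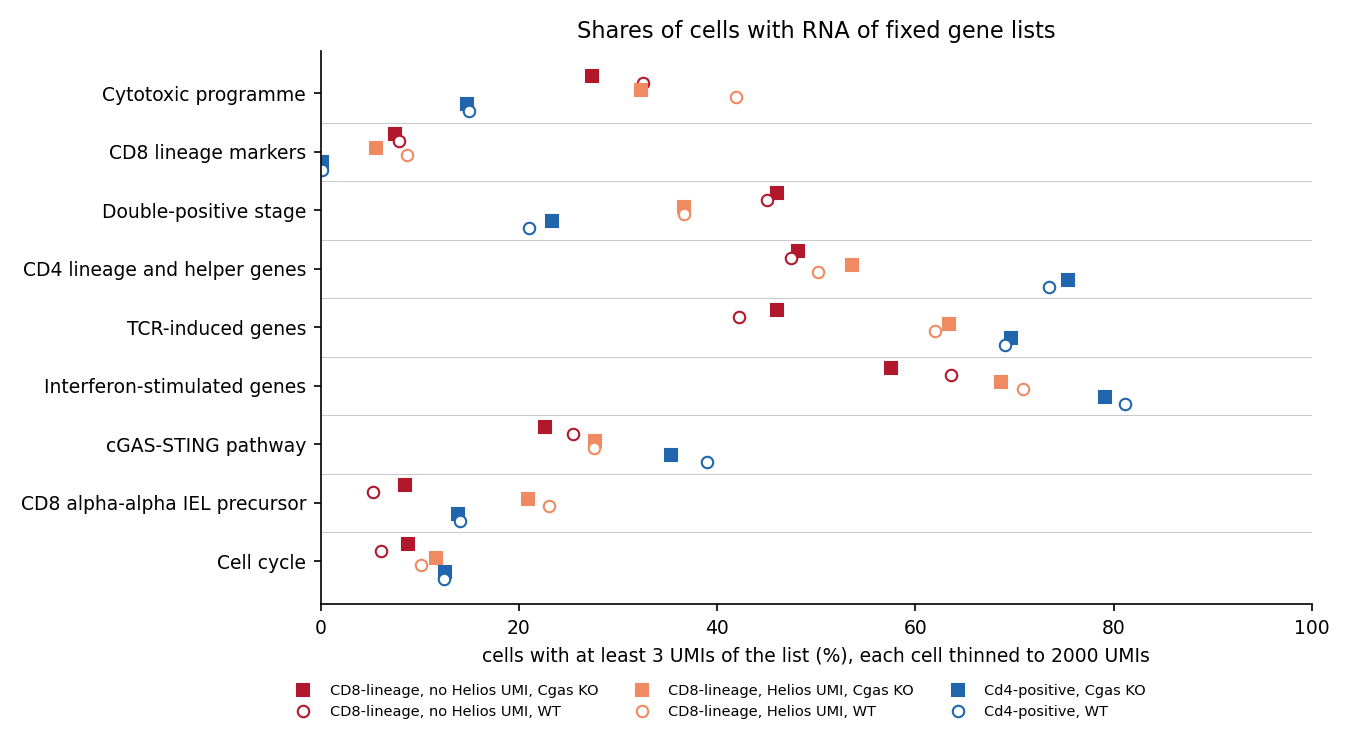
Share of cells (x axis, %) with at least 3 UMIs of each fixed gene list after thinning every cell to 2000 UMIs, without the genes of the rule, for the 3 classes (colours) and the Cgas KO (filled squares) and WT (open circles) libraries. Helios-negative CD8 cells lie above Cd4-positive cells for the cytotoxic and double-positive lists and below them for the helper, TCR-induced and interferon lists.

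The cell cycle list turned with the way cells were classed. With the rule as given, 14 of its 17 members fell and none rose (median log2 -1.32); Mki67, a marker of cycling cells, had 33.1 and 14.3 CPM in Cgas KO and WT Helios-negative CD8 cells against 78.7 and 75.6 CPM in Cd4-positive cells. With the rule applied after thinning each barcode to 2000 UMIs, 7 rose and none fell (median log2 0.39). No direction is given for this list.

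Markers of other cells were measured beside these results. Of 8 innate-like and NKT genes, 4 in Cgas KO and 5 in WT had no UMI in Helios-negative CD8 cells, and the list summed to 4.57 and 3.21 CPM, against 3.61 and 2.64 CPM in Cd4-positive cells. Zbtb16, the defining factor of NKT cells, had 0.381 CPM in Cgas KO and no UMI in WT; it was chosen after its values were seen. Of 8 B cell genes 4 were at 0 in each library, and the list summed to 127 and 98.0 CPM in Helios-negative CD8 cells, against 60.7 and 47.0 CPM in Cd4-positive cells and 99.7 and 73.1 CPM in free RNA. Both B cell genes tested rose: Ighm, the heavy chain of IgM, had 118 and 90.1 CPM against 58.0 and 43.6 CPM, and Cd79b, a signalling chain of the B cell receptor, had 7.62 and 6.42 CPM against 0.732 and 0.898 CPM. The part of B cell RNA in the results was not tested. Gamma-delta genes summed to 11.4 and 22.7 CPM against 17.9 and 23.0 CPM, with 3 of 6 at 0 in Cgas KO; Trdc, the delta chain's constant region, rose, at 8.38 and 6.999 CPM against 3.85 and 3.81 CPM. Dendritic and myeloid genes summed to 263 and 320 CPM against 302 and 319 CPM, with 5 and 3 of 11 at 0 and Itgax at 0 in both libraries. Erythroid genes summed to 4.57 and 5.25 CPM against 5.21 and 3.16 CPM, and epithelial and stromal genes to 89.9 and 75.8 CPM against 136 and 129 CPM.

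Maturation differed between the classes, so it was looked at directly. After thinning, 1.14% of Helios-negative CD8 cells in Cgas KO (0.460 to 2.34) and 1.69% in WT (0.879 to 2.94) held S1pr1 without Itm2a, against 11.3% and 11.0% of Cd4-positive cells. Itm2a without S1pr1 was held by 47.3% and 43.1%, against 53.1% and 52.7%, and neither gene by 49.9% and 54.4%, against 23.2% and 24.0%. Within cells that held Itm2a and no S1pr1 UMI, 1440 of 10595 genes differed between Helios-negative CD8 cells and Cd4-positive cells, 478 higher (4.51%) and 962 lower (9.08%). Of the 1673 genes called in all cells, 1203 were called in the same direction there. The Itm2a cells, 378 of 613 Helios-negative CD8 cells in Cgas KO and 440 of 708 in WT, are part of all cells. Shared calls were therefore in part fixed in advance. Within those cells 8 of 12 cytotoxic genes rose and none fell, and of 18 helper genes 12 fell and 1 rose. Of 12 double-positive genes 6 rose and none fell, of 21 TCR-induced genes 11 fell and none rose, and of 42 interferon-stimulated genes 17 fell and none rose. Of 18 late maturation genes 5 fell and 1 rose.

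Unthinned, 14 Cgas KO and 13 WT Helios-negative CD8 cells held S1pr1 and no Itm2a UMI, and 378 and 440 held Itm2a and no S1pr1 UMI. Set against each other in 1 fit with the same stages of Cd4-positive cells, 89 of 10595 genes were higher (0.84%) and 71 lower (0.67%) in the S1pr1 cells. Klf2 had 1648 and 1171 CPM in S1pr1 cells of Cgas KO and WT against 249 and 309 CPM in Itm2a cells. Ms4a4b, a membrane protein of mature T cells, had 801 and 897 CPM against 139 and 205 CPM, and Itgae had 212 and 213 CPM against 13.997 and 19.3 CPM, from 14 UMIs in each library's S1pr1 cells. Cd24a, lost at maturity, had 1 UMI in Cgas KO and 0 in WT S1pr1 cells, against 156 and 127 CPM in Itm2a cells. Of 18 late maturation genes 9 rose and none fell, of 42 interferon-stimulated genes 8 rose and none fell, and of 11 heat-shock genes 4 fell (1 with DESeq2 size factors). The size of the rise differed between the libraries. Ifit1 had 287 and 30.4 CPM in S1pr1 cells of Cgas KO and WT, from 19 and 2 UMIs, against 22.5 and 22.5 CPM in Itm2a cells. Isg15 had 711 and 259 CPM against 144 and 215 CPM, while Ifi27l2a had 998 and 532 CPM against 175 and 187 CPM. Without the library term 3 of the interferon-stimulated genes were called. The median over all genes tested was -0.26 on the log2 scale, which DESeq2 size factors moved to -0.16 and library totals to -0.23, and the split of calls became 120 higher and 43 lower with the first and 98 and 63 with the second; the DESeq2 test gave 160 and 21. The 27 S1pr1 cells also carry the receptor genes of few clones: Trbv16 and Trbv31 were among the genes whose stage difference differed from that in Cd4-positive cells. With both stages averaged, the 2 lineages differed in 415 genes, 107 higher (1.01%) and 308 lower (2.91%) in Helios-negative CD8 cells; DESeq2 gave 176 and 141.

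Against Helios-positive CD8 cells fewer genes were called. Their sums held 3025245 and 3009352 UMIs in Cgas KO and WT, against 36889930 and 36762846 in Cd4-positive cells. The numbers of calls in the 2 comparisons therefore do not measure likeness. In the same fit 106 genes (0.973%) were higher and 376 (3.45%) lower in Helios-negative CD8 cells. The CD8 markers did not separate these 2 classes at this threshold: Runx3 had 235 and 210 CPM in Cgas KO and WT Helios-negative CD8 cells against 180 and 163 CPM in Helios-positive ones (log2 0.34 ± 0.07), and Nkg7 had 149 and 223 CPM against 213 and 212 CPM (log2 -0.22 ± 0.10). Runx1, the Runx protein of earlier thymocytes, was higher, with 453 and 392 CPM against 238 and 196 CPM (edgeR adjusted p = 4.82e-11). Ssbp2, a cofactor of LIM proteins, had 350 and 384 CPM against 187 and 213 CPM. On the double-positive list 3 of 14 genes rose and none fell, Dntt with 104 and 83.1 CPM against 44.3 and 56.8 CPM.

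Lower in Helios-negative CD8 cells were genes of strong signalling. Of 21 TCR-induced genes 12 fell and none rose, and of 7 genes tested on the list of CD8 alpha-alpha intestinal precursors all 7 fell. Tnfrsf9 had 12.6 and 9.92 CPM in Cgas KO and WT Helios-negative CD8 cells against 161 and 205 CPM in Helios-positive ones (log2 -4.08 ± 0.13, edgeR adjusted p = 1.82e-16). Xcl1, a chemokine that draws dendritic cells, had 2.67 and 2.33 CPM against 134 and 50.5 CPM. Lad1, an anchoring filament protein, had 4.19 and 2.04 CPM against 66.4 and 82.4 CPM. Bcl3, a nuclear partner of NF-kappaB, had 12.2 and 13.998 CPM against 53.5 and 55.2 CPM, and Cd5 had 144 and 135 CPM against 356 and 348 CPM. Interferon-stimulated genes were lower in 10 of 41 and cell cycle genes in 12 of 17. With each cell thinned after classing, no cell cycle gene and 5 interferon-stimulated genes were called lower, and over all genes 66 were called higher and 183 lower. Helios-positive CD8 cells were deeper, with medians of 4891 and 5500 UMIs, and their dendritic and myeloid list summed to 403 and 478 CPM; Cd74 (the class II invariant chain) of that list had 53.7 and 58.3 CPM in Helios-negative CD8 cells against 122 and 142 CPM. The part of these values in the result was not tested.

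TCR chains, which the rule did not use, were found in nearly all of these cells. A contig was joined to 97.4% of Helios-negative CD8 cells in Cgas KO and 97.5% in WT, against 94.8% and 94.6% of Cd4-positive cells, and both chains to 85.8% and 86.6%. A second alpha chain was seen in 12.2% (9.75 to 15.1) and 11.4% (9.19 to 14.02) of Helios-negative CD8 cells, against 15.4% (14.5 to 16.3) and 14.6% (13.7 to 15.5) of Cd4-positive cells.

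Use of V segments differed between the lineages. Cells were counted per segment and tested with edgeR's quasi-likelihood test on the 4 sums of library and class. Barcodes that shared their whole receptor, 48 Helios-negative CD8 cells in Cgas KO and 0 in WT, were each counted. This holds for TRBV, TRAV and TRAJ use and for the CDR3 means. None of these was repeated with 1 barcode per receptor. Of 22 TRBV segments, 7 (31.8%) were used more and 2 (9.09%) less by Helios-negative CD8 cells at an adjusted p under 0.05. TRBV12-1 was carried by 8.95% of chains in Cgas KO and 9.83% in WT Helios-negative CD8 cells, against 2.43% and 2.73% in Cd4-positive cells (ratios 3.69 and 3.60, edgeR adjusted p = 0.000312). TRBV29 made up 6.71% and 6.04% against 2.31% and 1.89%, and TRBV12-2 made up 5.11% and 7.58% against 2.37% and 2.54%. TRBV14, TRBV17, TRBV13-1 and TRBV10 were the other segments used more. TRBV31 made up 3.51% and 1.97% against 8.82% and 8.63%, and TRBV2 made up 2.72% and 3.51% against 6.43% and 6.26%. TRBV23 went opposite ways in the libraries, at 0.319% in Cgas KO and 1.83% in WT Helios-negative CD8 cells, against 0.775% and 1.17% in Cd4-positive cells. Cells that the authors' table gives as TRBV12-2+TRBV13-2, a joint name, were counted apart. DESeq2 called 4 segments, 3 used more and 1 less, and cells with exactly 1 alpha and 1 beta chain gave 7 and 7.

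The first 2 complementarity-determining regions are encoded by the V segment and contact the MHC. CDR1 is shown for the 7 called segments whose fitted share differed at least 2-fold, as the most common sequence in the deposited contigs, 5′ to 3′, with capitals for the 9 bases with which TRBV12-1, TRBV12-2 and TRBV14 begin. Of 21 TRBV segments in the contigs, these 3 have that start. The start was read from segments already called as used more, so that its carriers are used more was fixed by this choice.
TRBV12-1: TCTGGACATagcaat
TRBV12-2: TCTGGACATctctct
TRBV14: TCTGGACATgatacc
TRBV29: atgagccatgaaaca
TRBV17: atgaatcatgatacc
TRBV31: gggaaatcaagccctaac
TRBV2: ctaggccacaatgct

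**Figure D4:**
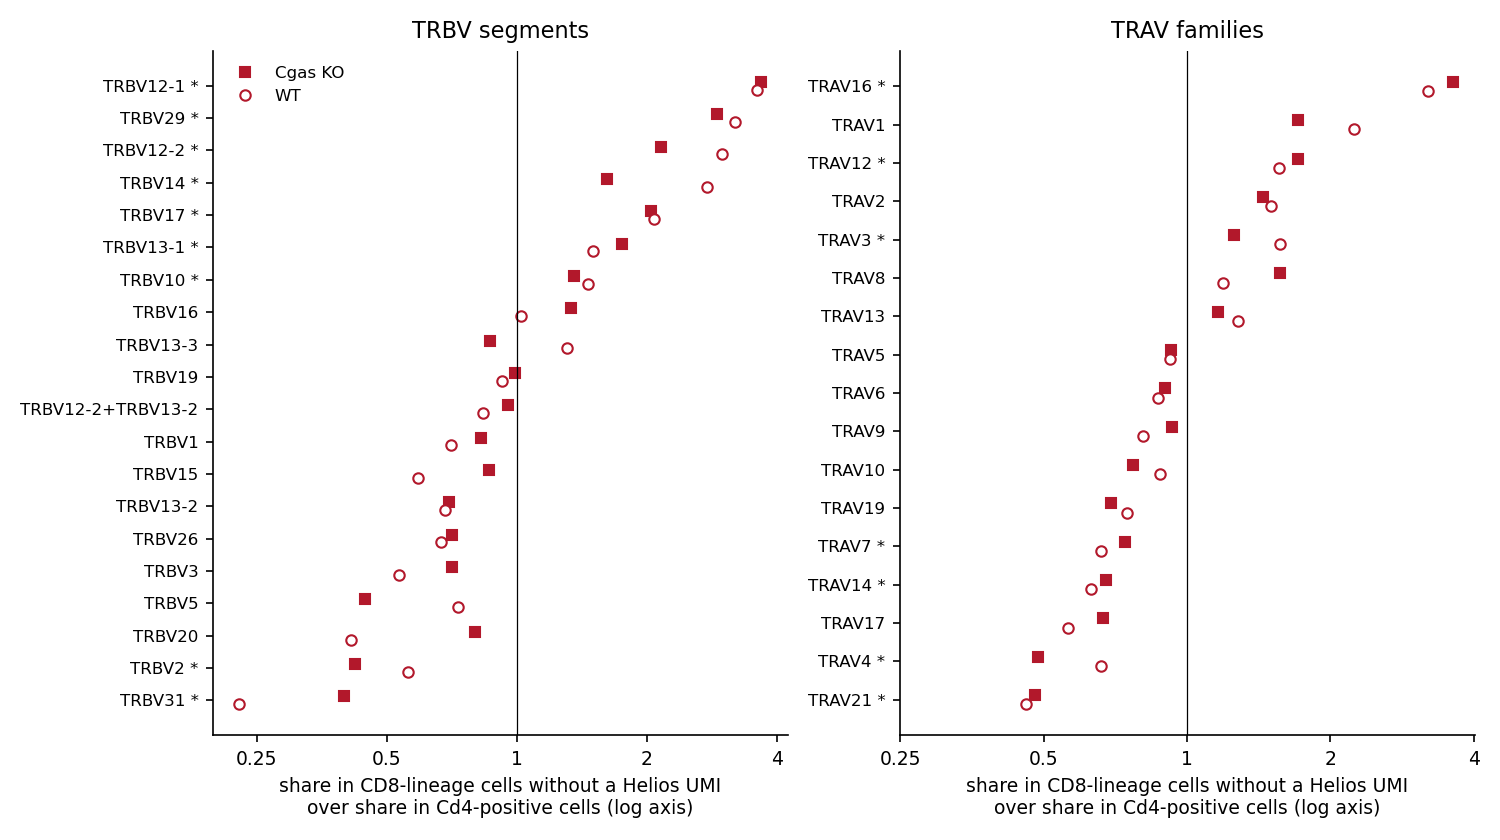
Share of chains with each TRBV segment (left) or TRAV family (right) in Helios-negative CD8 cells over the share in Cd4-positive cells (x axis, log), in the Cgas KO (filled squares) and WT (open circles) libraries, for segments carried by at least 3 Helios-negative CD8 cells in each library. Stars mark segments with an edgeR adjusted p under 0.05; TRBV12-1 and TRAV16 lie above 3 in both libraries.

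Alpha chains were compared by family, since the copies of a TRAV family are close to identical and a copy may be misnamed. Of 19 families, 3 (15.8%) were used more and 4 (21.1%) less. TRAV16 made up 10.1% of chains in Cgas KO and 11.0% in WT Helios-negative CD8 cells, against 2.77% and 3.42% in Cd4-positive cells (ratios 3.62 and 3.21, edgeR adjusted p = 0.000263). TRAV12 made up 14.6% and 13.4% against 8.51% and 8.60%, and TRAV3 made up 5.19% and 7.95% against 4.14% and 5.06%. TRAV4 made up 4.19% and 5.20% against 8.61% and 7.88%, and TRAV14, TRAV7 and TRAV21 were also used less. TRAV16 was the only family called by DESeq2 and among cells with exactly 1 alpha and 1 beta chain. Its copies carried these CDR1 sequences.
TRAV16 and TRAV16N: acccgggacagttcttacttc
TRAV16D-DV11: acccaggacagttcttacttc

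Of 43 TRAJ segments 1 (2.33%) was called, TRAJ45, with 2.32% and 2.17% of chains in Cgas KO and WT Helios-negative CD8 cells against 1.17% and 1.02% in Cd4-positive cells (edgeR adjusted p = 0.0484). The call was lost among cells with exactly 1 alpha and 1 beta chain (edgeR adjusted p = 0.223), without the library term (edgeR adjusted p = 0.109) and with DESeq2 (adjusted p = 0.699), so the adjusted p ran from 0.0338 to 0.699 over the alternatives. The joined CDR3 differed by little in length. Alpha CDR3s averaged 13.7 ± 1.4 and 13.6 ± 1.5 residues (SD over chains) in Cgas KO and WT Helios-negative CD8 cells against 13.5 ± 1.3 and 13.5 ± 1.3 in Cd4-positive cells. Their net charge averaged 0.394 and 0.470 against 0.669 and 0.692, and that of beta CDR3s -0.809 and -0.795 against -0.667 and -0.708. Chains of 1 library are not replicates, so these means carry no test. Of 1267 distinct alpha CDR3 sequences in Helios-negative CD8 cells, 4 occurred in both libraries, and of 1318 distinct beta sequences none did. The most frequent of the 4, a TRAV14 to TRAJ22 join, was found in 2 cells of each library and in 6 Cd4-positive cells of each, and another, a TRAV16N to TRAJ13 join, in 1 cell of each and in no Cd4-positive cell.
TRAV14 to TRAJ22: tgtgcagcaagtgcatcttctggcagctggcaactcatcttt
TRAV16N to TRAJ13: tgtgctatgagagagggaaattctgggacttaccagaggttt

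Between the genotypes there was 1 library each, so no test was run; ratios are of CPM in Cgas KO over WT with exact conditional 95% intervals that cover counting error only. Cgas, the targeted gene, had 2 UMIs in Cgas KO and 6 in WT Helios-negative CD8 cells, and 2.92 and 4.49 CPM over all kept barcodes. The labels do not state which exons are deleted, and UMIs from outside them check nothing. Helios-negative CD8 cells made up 4.26% of kept barcodes in Cgas KO (3.94 to 4.61) and 5.48% in WT (5.09 to 5.88), a ratio of 0.778 (0.697 to 0.869). The ratio was 0.974 (0.860 to 1.10) for Helios-positive CD8 cells and 0.998 (0.964 to 1.03) for Cd4-positive cells. Helios-negative cells were 53.4% of CD8 cells in Cgas KO (50.5 to 56.3) and 58.9% in WT (56.1 to 61.7). The Cgas KO cells were shallower, and with the rule applied after thinning the ratio of shares was 0.833 (0.750 to 0.926).

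Within Helios-negative CD8 cells, 6791 genes had at least 100 UMIs over both libraries and at least 20 CPM in 1 of them. Of these, 87 (1.28%) passed 1.5-fold upward in Cgas KO and 79 (1.16%) downward. The split was 77 and 91 with TMM factors and 112 and 65 with the rule applied after thinning. Helios-positive CD8 cells, close to them in number, gave 76 (1.12%) higher and 84 (1.23%) lower of 6816. In the more numerous Cd4-positive cells 14 of 6729 genes (0.208%) were higher and 24 (0.357%) lower. Of 6384 genes measurable in both classes, 12 were higher in both, 13 lower in both and none opposite. Sums over more cells have less counting error, and the difference between the classes was not tested.

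The largest ratios were in the Ifi200 family of DNA sensors. Ifi213 had 105 UMIs (39.999 CPM) in Cgas KO and 2 UMIs (0.583 CPM) in WT Helios-negative CD8 cells, a ratio of 68.6 (18.5 to 574), beside 97.7 (70.1 to 141) in Cd4-positive cells. Ifi206 had 52.2 CPM in Cgas KO and 1.46 CPM in WT, a ratio of 35.8 (15.0 to 112), beside 15.4 (13.3 to 17.9). Aim2, the sensor that starts an inflammasome, was lower, with 10.3 CPM in Cgas KO and 42.6 CPM in WT (0.242, 0.154 to 0.366), beside 0.220 (0.195 to 0.246). The peptide carrier Slc15a2 had 5.33 and 37.0 CPM (0.144, 0.0765 to 0.251), beside 0.114 (0.0922 to 0.140), and Ly6k had 25.9 and 72.0 CPM (0.360, 0.271 to 0.472), beside 0.376 (0.335 to 0.421). Each of these 5 genes lay on the same side of 1 in both classes.

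Cell cycle genes ran higher in Cgas KO Helios-negative CD8 cells. Of 13 measurable, 6 passed 1.5-fold upward and none downward. Mki67 had 33.1 CPM in Cgas KO and 14.3 CPM in WT (2.32, 1.62 to 3.36), beside 1.04 (0.988 to 1.10) in Cd4-positive cells. Ube2c had 32.0 and 12.5 CPM (2.55, 1.75 to 3.78), beside 1.15 (1.10 to 1.21), and Rrm2 had 32.8 and 13.4 CPM (2.44, 1.69 to 3.57), beside 1.04 (0.984 to 1.11). The share of cells with at least 3 UMIs of the list was 8.81% in Cgas KO (6.69 to 11.3) and 6.07% in WT (4.43 to 8.09), and these intervals overlap. In Helios-positive CD8 cells the ratios were 1.17 for Mki67, 0.763 for Ube2c and 0.909 for Rrm2, and the difference between the classes was not tested. With the rule applied after thinning, the ratios were 1.57 for Mki67, 1.36 for Ube2c and 1.41 for Rrm2; with 1 barcode per receptor they were 2.38, 2.62 and 2.5045.

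**Figure D5:**
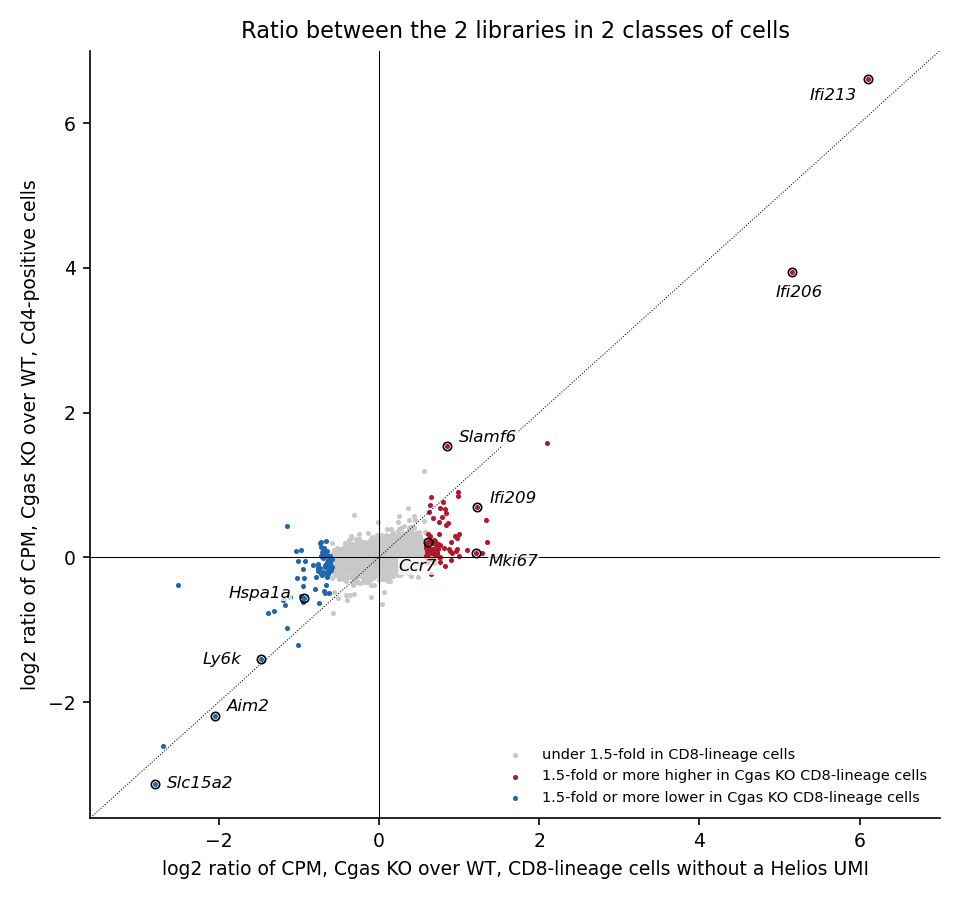
Log2 ratio of CPM, Cgas KO over WT, in Helios-negative CD8 cells (x axis) and in Cd4-positive cells (y axis), 1 point per gene measurable in Helios-negative CD8 cells, coloured by the 1.5-fold threshold on the x axis. Ifi213, Aim2, Slc15a2 and Ly6k lie near the diagonal, Ifi206 lies below it, and Mki67 lies near 0 on the y axis.

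The heat-shock genes Hspa1a and Hspa1b, inducible HSP70 chaperones that also respond to cell handling, had 344 and 455 CPM in Cgas KO and 660 and 877 CPM in WT Helios-negative CD8 cells. Their ratios were 0.521 (0.482 to 0.563) and 0.519 (0.485 to 0.555), beside 0.680 and 0.653 in Cd4-positive cells. Of 11 heat-shock genes 3 passed 1.5-fold downward in Cgas KO and none upward. Ccr7, on which the sort was made, had 588 CPM in Cgas KO and 385 CPM in WT (1.53, 1.42 to 1.65), beside 1.16 (1.14 to 1.18), and 1.29 with the rule applied after thinning. Id3, an inhibitor of E proteins, had 166 and 98.9 CPM (1.68, 1.46 to 1.95), beside 1.25 (1.21 to 1.29). Nkg7 ran lower in Cgas KO, at 0.671 (0.593 to 0.759), and Runx3 stood at 1.12 (1.004 to 1.25). Of the cGAS-STING list Sting1 (0.617, 0.471 to 0.803) and Samhd1 (0.610, 0.479 to 0.772) were lower among 9 measurable, though Samhd1 stood at 0.851 with the rule applied after thinning, and of 25 interferon-stimulated genes Oas3 was lower (0.638, 0.430 to 0.933) and none higher. Ctcf stood at 1.04 (0.916 to 1.19), and no CTCF or cohesin gene of 15 passed 1.5-fold. Over all measurable genes 1.28% passed upward and 1.16% downward, so this count says nothing particular to the list.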

How the data were processed

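The authors deposited unfiltered matrices of UMI counts per gene and barcode for 2 gene expression libraries and tables of productive TCR contigs with their UMI counts for 2 TCR libraries. The file headers name Cell Ranger 8.0.1. Cell Ranger 7.0, mm10 and Seurat 5.1.0 stand in the submitters' processing notes; this conflict was not resolved, so no coordinates are taken from the files. They held 87310091 UMIs in Cgas KO and 84763106 in WT over 33696 genes. Groups come from the sample titles, and contigs were joined by barcode within a genotype. The members, gene lists (25) and tests were chosen with earlier results of these data known.

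Summed counts of each class in each library were tested with edgeR 4.0.16 (TMM, filterByExpr, library as a term; R 4.3.3), with DESeq2 1.42.0 as an alternative. V and J segments were counted as cells and scaled by library totals. The library term pairs the classes because they come from the same library. The 5 rule genes were left out of calls. Shares have exact Clopper-Pearson intervals and ratios exact conditional intervals, at 95%; they cover counting error only. No doublet caller was run; barcodes with several beta chains were left out as an alternative, and keeping 1 barcode per identical receptor was an alternative chosen after seeing the data. Named genes were the 12 highest and 12 lowest called genes with at least 50 CPM in the higher class of both libraries (10 each way between genotypes), up to 4 per list by size of change, and a fixed set that includes Cgas, Ctcf, Ccr7, Il7r and Zbtb7b. The fit was run on simulated counts with known changes and no effect of genotype or library. Such a run cannot check p-values that rest on 1 library per genotype. Python 3.11.15 with scipy 1.17.1 was used for the rest.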

Additional observations from a re-analysis of the deposited data

Results flagged for a closer look

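The change with maturation differed between the lineages for 49 genes by a test of the difference itself (edgeR's quasi-likelihood test of the lineage by stage interaction, adjusted p under 0.05), 16 with a larger and 33 with a smaller value in Helios-negative CD8 cells. The larger share of these turned with the scaling and the tool: 26 and 16 with DESeq2 size factors, 26 and 17 with library totals, and 30 and 6 with the DESeq2 test. Klf2 was higher in S1pr1 cells than in Itm2a cells by 2.28 on the log2 scale in Helios-negative CD8 cells and by 1.21 in Cd4-positive cells, and Lgals1, a galectin, by 2.20 and 0.75. Without the library term 2 genes differed, and the S1pr1 group holds 27 Helios-negative CD8 cells.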

How the results depend on the processing

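The ratio of shares (0.778) ran from 0.721 to 0.859 over 9 alternatives. Counts of calls moved by over 1.5 times as follows. DESeq2 called 1106 genes against Cd4-positive cells (401 higher, 705 lower) and 243 against Helios-positive CD8 cells. Without the library term, 261 genes differed from Helios-positive CD8 cells, 90 between stages and 2 in the interaction. Thinning gave 249 against Helios-positive CD8 cells. In WT or Cgas KO alone, with no test, 807 and 769 genes passed the fold for lineage, 3715 and 3841 for stage and 1854 and 1756 for lineage at matched stage. DESeq2 called 1 TRAV family, 4 TRBV and 2 TRAJ segments; cells with 1 alpha and 1 beta chain gave 1, 14 and 0 (7 TRAJ segments at an unadjusted p under 0.05 in edgeR). Between genotypes 166 genes passed 1.5-fold, 51 with at least 50 CPM, and 28 passed 2-fold. With the rule applied after thinning, the lineage log2 difference turned to 0.97 for Ube2c, 0.26 for Mki67, 0.75 for Cdk1, 0.32 for Esco2 and 0.13 for Smc1a, and the Gadd45b ratio to 0.975; the cause was not tested. Thinning left Ifi213 with no WT UMI and hence no ratio. Depth limits genes under 100 UMIs and segments carried by few cells.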

Other observations

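Adhesion and surface genes of Helios-negative CD8 cells were divided, with 5 of 21 higher and 10 lower than in Cd4-positive cells. Cd226, a costimulatory receptor that shares ligands with TIGIT, had 222 and 215 CPM in Cgas KO and WT Helios-negative CD8 cells against 62.3 and 66.0 CPM in Cd4-positive cells, and Cd27, a TNF receptor of T cells, had 303 and 302 CPM against 187 and 185 CPM. Ly6a (Sca-1) had 6.10 and 9.62 CPM against 40.7 and 50.2 CPM. Of 15 apoptosis regulators 1 was higher and 1 lower, near the shares over all genes tested (5.36% and 10.0%): Bmf, a BH3-only inducer of cell death, had 12.6 and 12.8 CPM against 1.73 and 2.42 CPM, and Bcl2a1b, a survival protein, had 5.33 and 10.8 CPM against 30.0 and 39.8 CPM. Cd226 and Cd27 were chosen after their values were seen.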
